A study of Mus musculus with 2 samples.

Results

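The genes described here are 10 mouse genes for angiogenic growth factors and their partners, taken from the 12393 genes that the array could read through probe sets with a single gene symbol. They are the vascular endothelial growth factor genes Vegfa, Vegfb and Vegfc, the platelet-derived growth factor genes Pdgfa and Pdgfb, the neuropilin genes Nrp1 and Nrp2, and Hbegf, Tgfb1 and Thbs1. The members were chosen by name, and 17 probe sets carried one of these symbols alone. A further probe set named both Pald1 and Thbs1 and was left out. Messenger RNA was measured in RAW 264.7 cells, a mouse macrophage-like tumour cell line. One culture condition was IFN-gamma at 1000 U/ml for 4 h, and the other was IFN-gamma at the same dose with adenosine at 300 uM for 4 h. IFN-gamma was thus present in both, and no untreated array was analysed here. RNA of 2 experiments was pooled for each treatment and hybridized to 1 Affymetrix array per treatment. No difference therefore has a replicate check, and no test was possible.

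Blood vessels grow when endothelial cells receive VEGF signals through tyrosine kinase receptors, with neuropilins as co-receptors that also bind class 3 semaphorins. Macrophages in hypoxic or healing tissue are a known source of VEGF-A, and adenosine, which accumulates in such tissue, is known to promote VEGF release by macrophages. PDGF recruits the mural cells that coat new vessels, HB-EGF is a membrane-anchored ligand of the EGF receptor family, TGF-beta 1 acts on both vessels and immune cells, and thrombospondin 1 is an inhibitor of angiogenesis.

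Start regions of Vegfa and Vegfb, the members with the highest log2 ratios below, and of Nrp1, one of the lower ones, are shown first. RefSeq start sites of GRCm38.p6 were given for 7 of the 10 genes, with 2 starts for Vegfa, of which the upstream one is shown. The 250 bases before the start are printed 5′ to 3′ on the strand of the gene, for Vegfa (chr17:46032378-46032627, minus strand), Vegfb (chr19:6987652-6987901, minus strand) and Nrp1 (chr8:128358823-128359072, plus strand). Capitals mark GGGCGG on either strand, the GC box bound by Sp1-type factors.
Vegfa: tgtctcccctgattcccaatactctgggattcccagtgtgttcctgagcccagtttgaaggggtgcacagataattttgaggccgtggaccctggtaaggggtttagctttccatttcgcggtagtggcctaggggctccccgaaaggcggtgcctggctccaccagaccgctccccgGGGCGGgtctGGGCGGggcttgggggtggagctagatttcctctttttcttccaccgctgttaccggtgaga
Vegfb: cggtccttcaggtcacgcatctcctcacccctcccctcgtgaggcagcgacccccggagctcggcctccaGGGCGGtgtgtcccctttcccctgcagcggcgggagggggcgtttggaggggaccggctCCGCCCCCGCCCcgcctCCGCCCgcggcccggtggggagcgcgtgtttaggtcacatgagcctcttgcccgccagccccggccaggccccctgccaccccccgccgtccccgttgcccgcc
Nrp1: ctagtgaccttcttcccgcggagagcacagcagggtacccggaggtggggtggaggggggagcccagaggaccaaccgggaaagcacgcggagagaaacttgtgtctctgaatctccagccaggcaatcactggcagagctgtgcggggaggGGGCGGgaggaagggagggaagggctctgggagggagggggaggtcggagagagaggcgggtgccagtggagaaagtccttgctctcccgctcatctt
The GC box occurred 2 times before Vegfa, 4 times before Vegfb and 1 time before Nrp1, and 32.7% of 32851 promoter windows of this length held it on at least 1 strand. The core bound by hypoxia-inducible factors, ACGTG or GCGTG on either strand, had 0 matches before Vegfa, 2 before Vegfb and 1 before Nrp1, and 38.6% of windows held it. The window before the other Vegfa start (chr17:46025164-46025413, minus strand) had 2 matches to this core and 1 GC box. That window lies downstream of the first start on the strand of the gene, so its matches are not upstream of that start. The hypoxia element for which Vegfa is known lies further upstream than the printed Vegfa window. TGANTCA, the AP-1 site, and TTCNNNGAA, the site of STAT factors, were found before none of the 3, with 6.75% and 7.02% of windows holding them. The 8-letter cAMP response element TGACGTCA was in none of the 3 and in 1.55% of windows. The NF-kB consensus site had 1 match in the printed Vegfa window, with 7.25% of windows holding it. GCGNGGGCG, the site of EGR factors, had 1 match before Vegfb, with 4.70% of windows holding it. Nrp1 had no match to either. These matches describe the letters of the windows and were not compared with the expression values.

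Probe set signals are linear intensities in arbitrary units. The adenosine array was dimmer, with a median of 15.2 against 45.9 over gene probe sets, so its signals were multiplied by 2.82 to centre the median log2 ratio on 0. Signals of the adenosine array are given on that scale unless called deposited, and log2 ratios are of adenosine with IFN-gamma over IFN-gamma alone. As a convention, 44.0 was taken as the floor, which is the 50th percentile of scaled signals. A signal below it was raised to it, the fold is then a lower bound, and a gene below it on both arrays was not counted as measured. The SD of a log2 ratio, estimated within 2375 genes that had 2 or more probe sets exceeding the floor in both treatments, was 0.52, and that of a difference of 2 ratios was 0.73. These SDs cover scatter between probe sets and not the spread between cultures or arrays. Levels of different genes are not compared, because signals of different probe sets have no common scale.

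**Figure D1:**
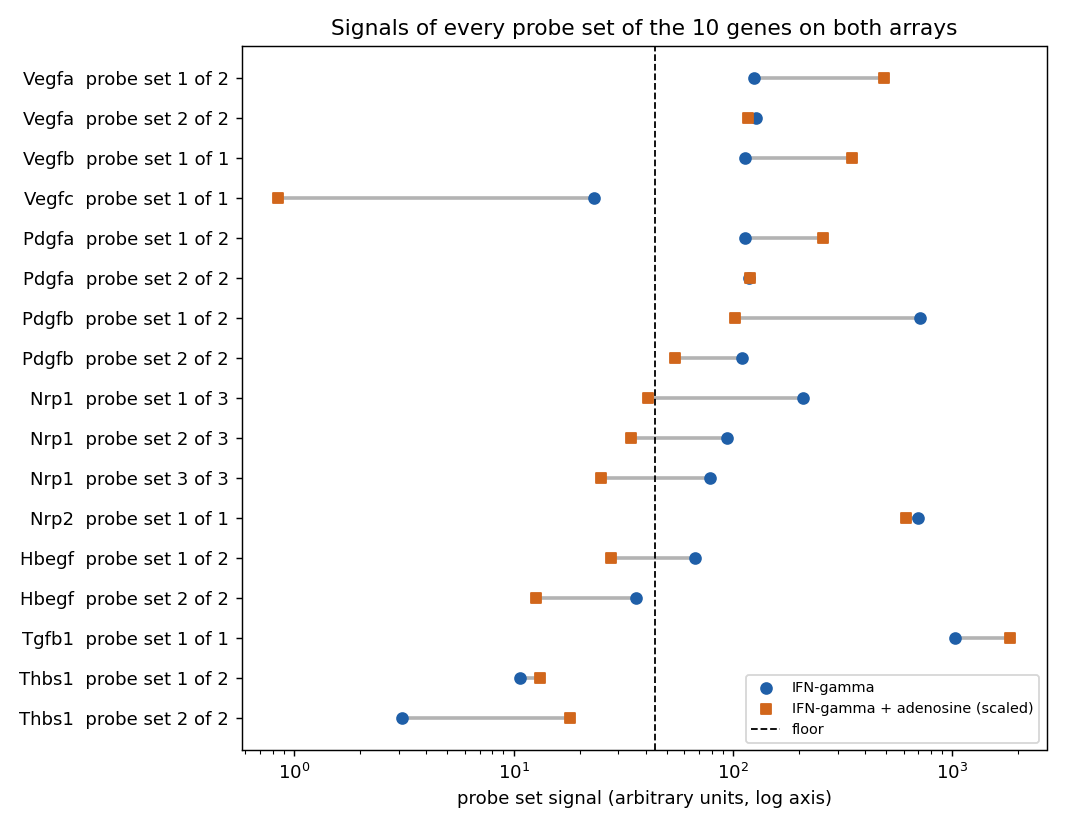
Signal of each of the 17 probe sets (rows, ordered within a gene by mean signal) on the IFN-gamma array (circles) and on the adenosine array after scaling (squares), on a log axis in arbitrary units, with the floor of 44.0 dashed. The upper Vegfa row runs from 125 to 490 while the lower one stays at 128 and 117, and all 3 Nrp1 rows end below the floor with adenosine.

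The members split in both directions. Of the 10 genes, 8 were measured, read from the probe set with the highest mean signal. Vegfa, Vegfb and Pdgfa were at least 2-fold higher with adenosine, and Pdgfb and Nrp1 were at least 2-fold lower. The call for Vegfa and Pdgfa depends on that choice of probe set, since their chosen probe set had the higher mean through its adenosine signal. Read from the probe set with the highest IFN-gamma signal, an alternative chosen after seeing the data, Vegfb alone was 2-fold higher, with Vegfa at -0.12 and Pdgfa at 0.02 on the log2 scale, and Pdgfb and Nrp1 were still 2-fold lower. Tgfb1 was 1.79-fold higher, short of 2-fold, and Hbegf was at least 1.53-fold lower. Among all 6818 measured genes, 4.52% were at least 2-fold higher and 10.1% at least 2-fold lower, and with the choice by IFN-gamma signal these shares were 3.82% and 10.6%. The members had a median log2 ratio of 0.33, against -0.08 for all measured genes. With the choice by IFN-gamma signal these medians were -0.15 and -0.11, so the higher member median depends on the probe set read. In the values as deposited, none of the members was 2-fold higher and 4 were 2-fold lower, against 0.141% and 78.8% of 7117 genes. With scaling on spiked-in controls the members again counted 0 and 4, against 0.473% and 50.7% of genes. Read by single probe sets, 3 of 13 measured ones were at least 2-fold higher and 4 at least 2-fold lower, against 5.88% and 9.51% of all measured probe sets with 1 symbol. In bulk RNA, fewer cells that express a gene and less of its RNA per cell cannot be told apart.

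**Figure D2:**
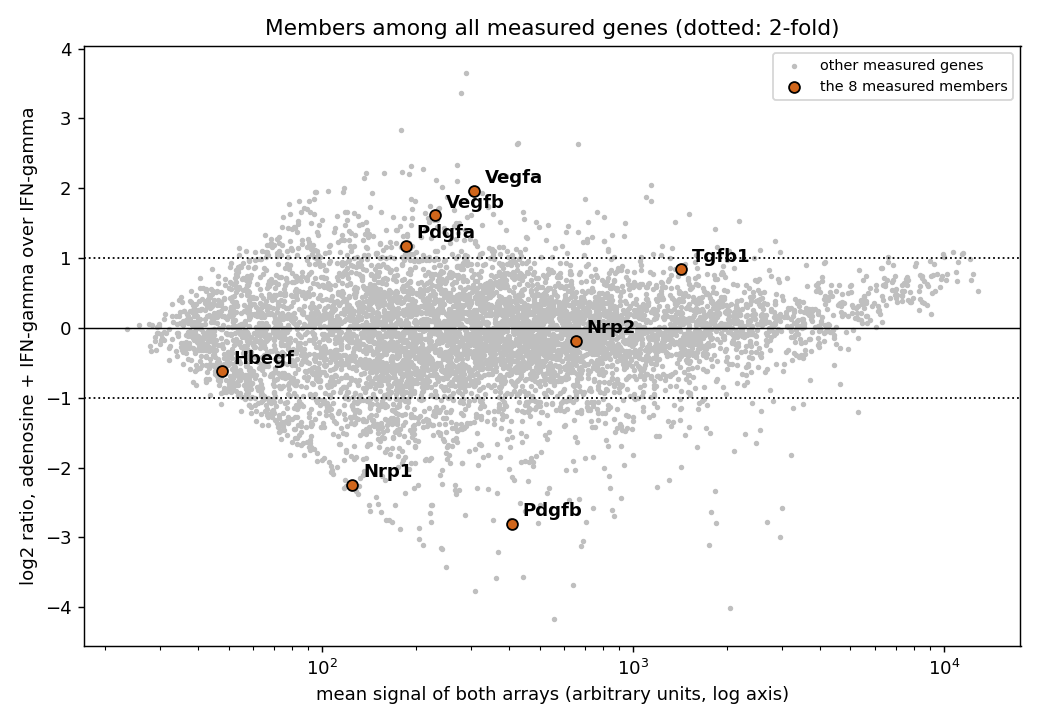
Log2 ratio against mean signal (log axis, arbitrary units) for 6818 measured genes (grey) and the 8 measured members (orange), each read from its brightest probe set, with dotted lines at 2-fold. Vegfa, Vegfb and Pdgfa lie above the upper line at 1.97, 1.62 and 1.18, and Nrp1 and Pdgfb lie below the lower line at -2.24 and -2.80.

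Vegfa encodes VEGF-A, the main angiogenic factor of the family. Its brightest probe set, 1451959_a_at, read 125 with IFN-gamma and 490 with adenosine, a 3.91-fold difference and a log2 ratio of 1.97. This was rank 21 from the highest of 6818 genes. In the group of genes with like mean signal (the third of 4 equal groups), 3.35% were at least 2-fold higher. The other probe set, 1420909_at, read 128 and 117, a log2 ratio of -0.12. The log2 ratios of the probe sets thus differed by 2.09. A difference that large between the 2 brightest probe sets was seen in 34 of 2375 genes (1.43%). In the deposited values the brighter probe set read 125 and 174, and the other read 128 and 41.6. The first was thus higher on the adenosine array even without scaling, where 104 of 7117 genes (1.46%) had a ratio above 0. Which probe set reflects the transcripts of the cells was not tested.

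The ending _a_at names a probe set shared by several transcripts of 1 gene. Such probe sets were at least 2-fold higher in 7.93% of 2446 measured cases, against 5.74% of 6939 with the plain ending _at. In 837 genes with both kinds, the _a_at ratio exceeded the _at ratio by a median of 0.11 on the log2 scale, and it was the higher one in 57.3%. The part of this in the Vegfa and Vegfb values was not tested.

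Vegfb, whose product binds VEGF receptor 1 and neuropilin 1 and is linked to lipid transport in heart and muscle vessels, had a single probe set, 1451803_a_at. It read 113 with IFN-gamma and 348 with adenosine, a 3.07-fold difference (log2 ratio 1.62), rank 63 from the highest. As deposited, the signals were 113 and 123, again above 0 without scaling. In its signal group, the second of the 4, 6.16% of genes were at least 2-fold higher. Vegfb lay 0.35 below Vegfa, within the SD of a difference. Vegfc, the lymphatic growth factor gene, stayed below the floor in both treatments, at 23.2 and 0.846, and no fold is given for it.

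The PDGF chains went apart. Pdgfa encodes the A chain, which acts through PDGF receptor alpha. Its brighter probe set, 1418711_at, read 114 and 257, a 2.26-fold higher signal with adenosine (log2 ratio 1.18, rank 190 from the highest). The other, 1449187_at, read 118 and 119, a log2 ratio of 0.02. The ratios of the probe sets differed by 1.16. Differences of that size or more occurred in 10.6% of genes with 2 probe sets. The Pdgfa ratio was -0.32 in the values as deposited.

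Pdgfb encodes the B chain, the ligand of PDGF receptor beta on pericytes. Its probe set 1450414_at read 712 with IFN-gamma and 102 with adenosine, 6.98-fold lower, with a log2 ratio of -2.80 at rank 19 from the lowest of 6818 genes. The other, 1450413_at, read 110 and 54.4, 2.03-fold lower. Both probe sets were thus at least 2-fold lower, although the sizes differed by 1.78 on the log2 scale, a gap reached by 2.65% of genes with 2 probe sets. The adenosine signal of this second probe set lay close to the floor. In its signal group 8.74% of genes were at least 2-fold lower. Pdgfa and Pdgfb, read from their brightest probe sets, were 3.98 apart on the log2 scale, and 1.04 apart by their other probe sets.

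The neuropilins also differed. Nrp1 encodes the co-receptor of VEGF-A and of semaphorin 3A. Its 3 probe sets read 209 and 41.2 (1448943_at), 94.2 and 34.4 (1418084_at), and 78.8 and 25.1 (1448944_at), each pair with IFN-gamma first. All 3 were below the floor with adenosine, so the folds are lower bounds, of 4.74, 2.14 and 1.79. Without the floor the scaled signals were 5.07-fold, 2.74-fold and 3.14-fold lower. The direction was the same in every Nrp1 probe set, but only the IFN-gamma signals passed the floor. A floored ratio could then only be negative, so the shared direction is not separate support. The folds without the floor used deposited adenosine signals of 14.6, 12.2 and 8.9, below the 24.5 used for centring. The size rested on the first probe set. In the lowest signal group, where Nrp1 lies, 11.4% of genes were at least 2-fold lower. Nrp2, which encodes the co-receptor of VEGF-C and of semaphorin 3F, had 1 probe set, 1426528_at, at 695 and 612, a log2 ratio of -0.18. This was within the SD of 0.52 of probe set scatter. Read from 1448943_at, Nrp1 lay at least 2.06 below Nrp2 on the log2 scale, beyond the SD of a difference. The other Nrp1 probe sets were bounded at log2 ratios of -1.10 and -0.84, so they set smaller lower limits on the gap. The limit from 1448944_at was within the SD of a difference.

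Hbegf, the gene of heparin-binding EGF-like growth factor, read 67.4 with IFN-gamma and 27.9 with adenosine by 1418350_at, and 36.3 and 12.7 by 1418349_at. The first was at least 1.53-fold lower, and 2.42-fold lower without the floor. The second was below the floor on both arrays. Its signals were near the floor throughout, which limits what these arrays show for it.

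Tgfb1, the TGF-beta 1 gene, read 1025 with IFN-gamma and 1831 with adenosine on its single probe set 1420653_at, a log2 ratio of 0.84. At this brightness the SD of probe set scatter was 0.42. In the deposited values it was lower with adenosine, at 1025 and 650, and its log2 ratio was -0.13 with scaling on spiked-in controls, so its direction depends on the scaling. Thbs1, the thrombospondin 1 gene, did not reach the floor with either probe set in either treatment, at 10.7 and 13.2 and at 3.1 and 18.0, and no direction is given.

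**Figure D3:**
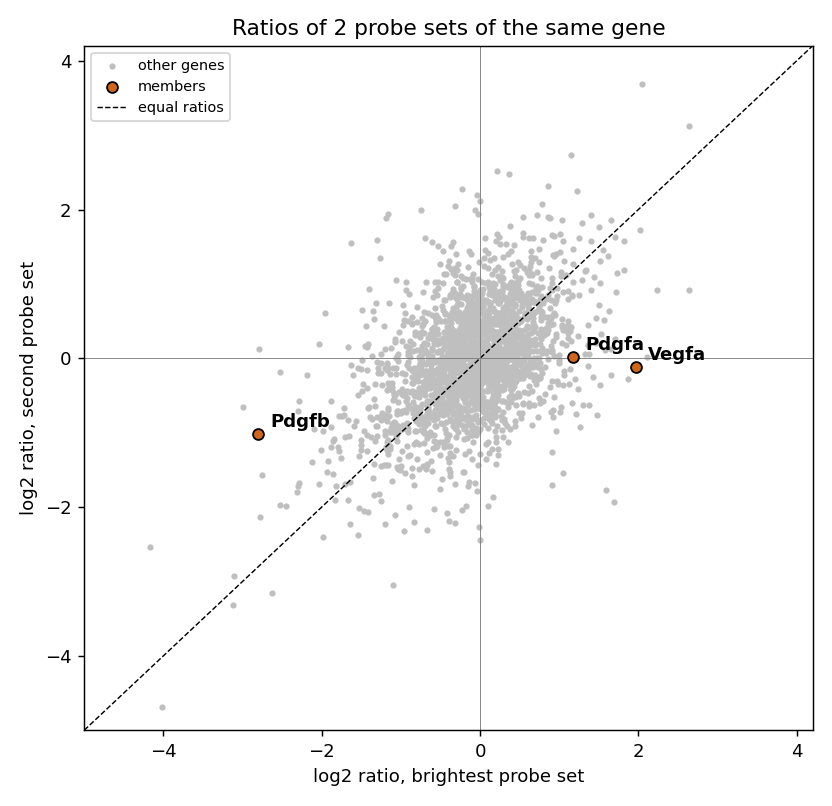
Log2 ratio of the second against the brightest probe set for 2375 genes with 2 or more that exceeded the floor in both treatments (grey) and for Vegfa, Pdgfa and Pdgfb (orange), with the line of equal ratios dashed. All 3 members lie off the line, with second probe sets at -0.12, 0.02 and -1.02 against 1.97, 1.18 and -2.80.

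A second measured probe set existed for 4 members (Vegfa, Pdgfa, Pdgfb and Nrp1), and all 4 differed from the brightest by at least 2-fold. Without the floor the gap in Nrp1 was 0.89 on the log2 scale, short of 2-fold. Over all genes a gap of 2-fold was seen in 451 of 2770 (16.3%). The disagreement in Vegfa and Nrp1 was known when the members were chosen, so this count is a description. Of the 140 genes at least 2-fold higher that had a second measured probe set, 34.3% were also 2-fold higher by it. In 23.6% it had the opposite sign, as in Vegfa, where the value of -0.12 was within the SD of 0.52.

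The log2 ratios of Hbegf and Nrp1 are bounds set by the floor, so these genes have no place in an order of sizes. The other measured members, in order of log2 ratio, were Vegfa, Vegfb, Pdgfa, Tgfb1, Nrp2 and Pdgfb. Neighbours among the first 4 lay within the SD of a difference, 0.73. Tgfb1 and Nrp2 were 1.02 apart and Nrp2 and Pdgfb 2.62 apart, both beyond it. The second probe sets of Vegfa and Pdgfa would place both genes beside Nrp2.

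**Figure D4:**
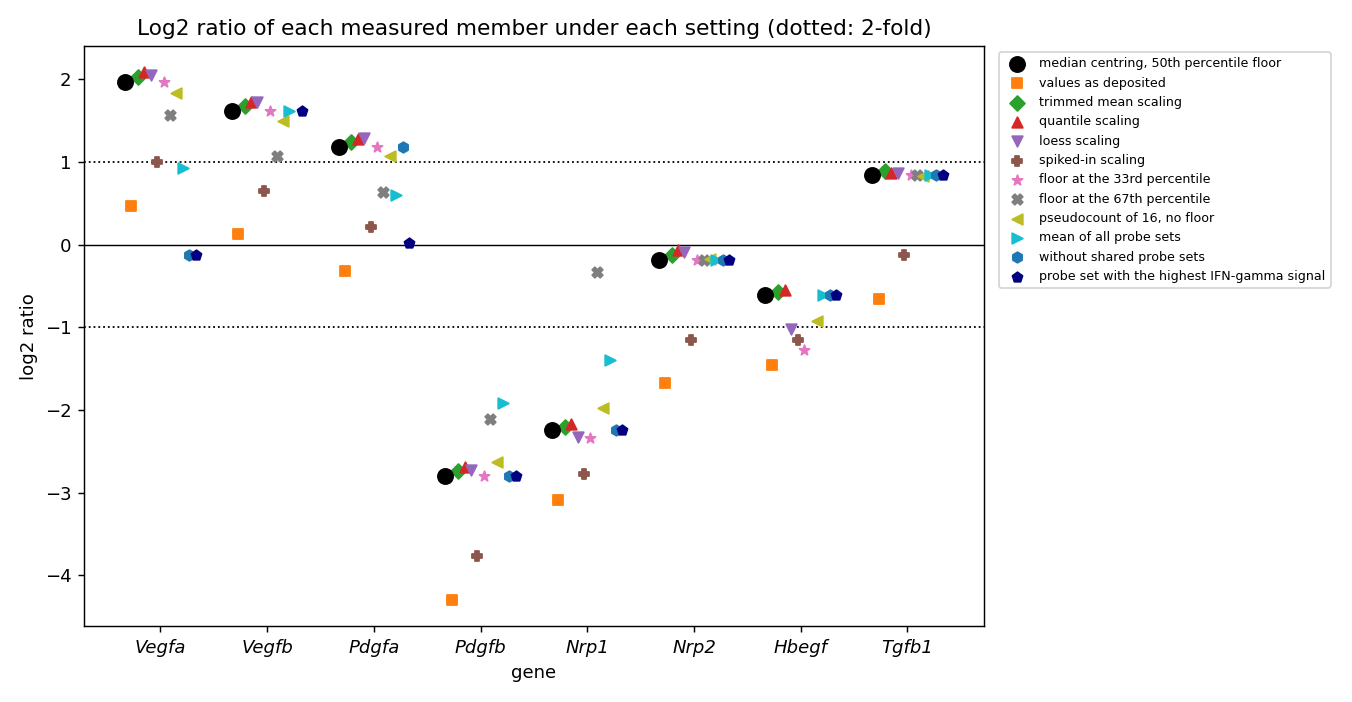
Log2 ratio of the 8 measured members under 12 settings of scaling, floor and probe set choice (symbols), with dotted lines at 2-fold. Pdgfb and Nrp1 stay below 0 in every setting shown, between -4.30 and -1.91 and between -3.09 and -0.34. Hbegf and Nrp2 also stay below 0, and Vegfb stays above 0, in the settings where they have a value. Hbegf has none under the higher floor, and Vegfb has none without shared probe sets. Nrp1 and Hbegf can only be negative in settings where their adenosine signal alone lies below the floor. Vegfa is at -0.12 without shared probe sets or with the probe set chosen by IFN-gamma signal. Pdgfa is at -0.32 as deposited, and Tgfb1 is below 0 in 2 settings.

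Receptors and partners of these factors were examined through lists of related genes. Of 113 genes listed, 99 were on the array and 43 were measured, of which 1 was at least 2-fold higher and 2 at least 2-fold lower. The shares of all measured genes were 4.52% and 10.1%. The 43 listed genes had a median log2 ratio of -0.04, beside -0.08 for all measured genes. Of the 20 with a ratio above 0, 1 (Arnt) was also above 0 in the values as deposited. Over all genes, 3000 of 6818 were above 0 after centring, and 104 of 7117 (1.46%) as deposited. The related ligand genes Vegfd, Pgf, Pdgfc and Pdgfd were all below the floor on both arrays. Among receptor genes, Kdr, Flt4, Pdgfra and Pdgfrb were below it on both arrays. Flt1, the VEGF receptor that macrophages carry, was at 48.9 with IFN-gamma, just above the floor, and at 16.9 with adenosine, at least 1.11-fold lower. Of the 5 VEGF and PDGF receptor genes, 1 was thus measured, and only on the IFN-gamma array.

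Of 11 neuropilin partners on the array, 2 were measured. Gipc1, an adaptor that binds the tail of neuropilin 1, read 273 and 144, 1.90-fold lower with adenosine. Plxnd1, a plexin that binds semaphorins, read 101 and 126. The semaphorin genes Sema3a, Sema3b, Sema3c, Sema3e and Sema3f were below the floor on both arrays.

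In the EGF family list, 5 of 15 genes on the array were measured and 1 was at least 2-fold lower. That was Erbb3, a receptor partner of the family, with 150 and 63.1 (2.38-fold lower); its other probe set was below the floor on both arrays. Adam17, the main sheddase of EGF family ligands, read 924 and 606 (log2 ratio -0.61, second probe set 0.03), and Adam9, another metalloprotease, 1660 and 1071 (log2 ratio -0.63). Egfr, the receptor of HB-EGF, was below the floor, at 27.4 and 41.2 on its brightest probe set.

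Genes of TGF-beta latency and signalling were measured in 13 of 24 cases, with 1 at least 2-fold lower, none 2-fold higher and a median log2 ratio of -0.41. Tgfbr2, the type II receptor gene, was 2.24-fold lower by its brightest probe set (1223 and 545), but 1425444_a_at read 142 and 545, a log2 ratio of 1.94. The gap of 3.10 between them was matched or exceeded in 4 of 2375 genes. Tgfbr2 thus has no settled direction. Tgfbr1, the type I receptor gene, had a log2 ratio of 0.12. Nrros, which holds latent TGF-beta 1 on myeloid cells, read 2042 and 1123 (log2 ratio -0.86), and Smad2, a signal transducer, 394 and 224 (log2 ratio -0.81).

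Among thrombospondin relatives and receptors, 6 of 11 were measured and none differed by 2-fold. Cd36, the scavenger receptor that binds thrombospondin 1, was at 5417 and 4405 (log2 ratio -0.30), and Cd47, another of its receptors, at 1713 and 1977 (log2 ratio 0.21, second probe set -1.06). Itgb1, the integrin beta 1 chain, and Calr, calreticulin, had log2 ratios of 0.77 and 0.61, both negative in the values as deposited.

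The hypoxia-inducible factor (HIF) pathway, a known inducer of Vegfa, had 7 of 10 genes measured and a median log2 ratio of 0.17. Arnt, the constant partner of the HIF alpha chains, read 60.2 and 230, a 3.82-fold higher signal with adenosine, and it too was an _a_at probe set. It was 0.44 in the values as deposited, above 0 like Vegfa and Vegfb. Its other probe set was below the floor on both arrays. Egln1, an oxygen-sensing hydroxylase that marks HIF for destruction, read 198 and 384 by its brightest probe set (log2 ratio 0.96) and 312 and 158 by the other (log2 ratio -0.98), so it has no settled direction. Egln2, a related hydroxylase, had a log2 ratio of -0.60.

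Of 19 other angiogenic factors and inhibitors on the array, 9 were measured and none differed by 2-fold. Angpt2, a ligand that destabilises vessels, read 55.9 and 100 (log2 ratio 0.84), Adm, adrenomedullin, 85.4 and 53.0 (log2 ratio -0.69), and Spred1, a brake on growth factor signalling, 1483 and 918 (log2 ratio -0.69).

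**Figure D5:**
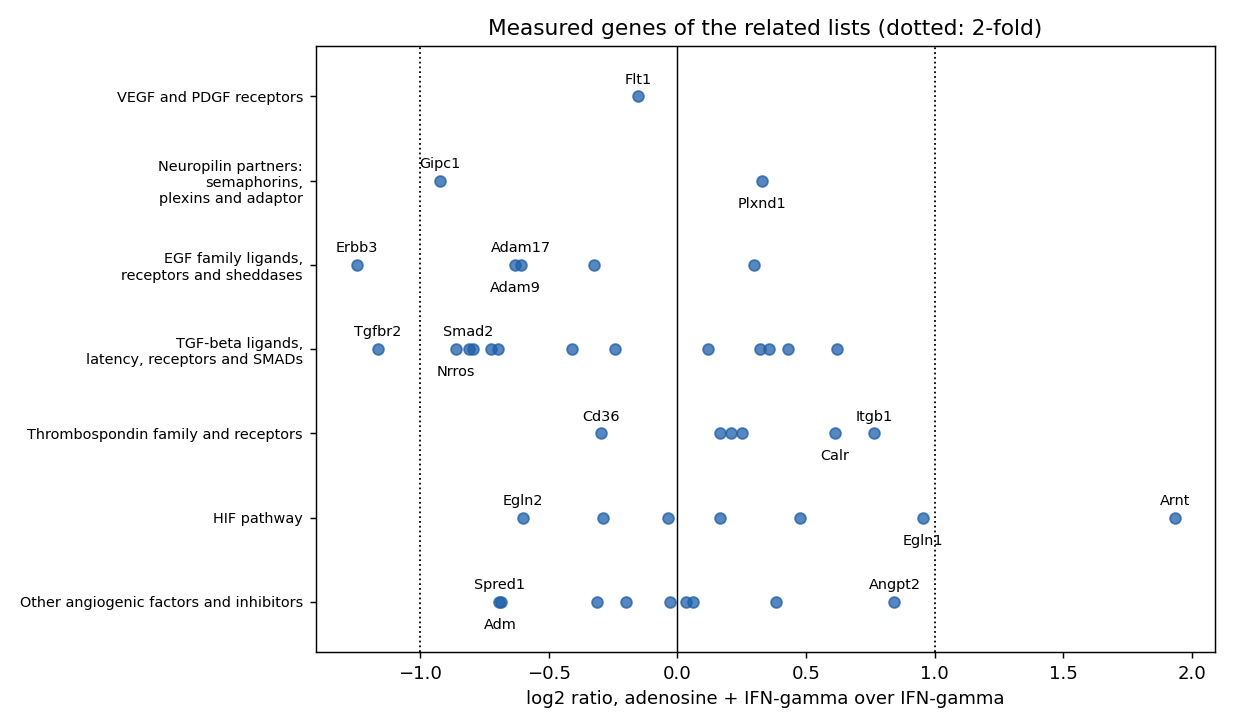
Log2 ratios (horizontal axis) of the 43 measured genes of the related lists (rows), each read from its brightest probe set, with dotted lines at 2-fold and the 3 largest absolute ratios of each list named. Arnt lies beyond the upper line at 1.93, and Erbb3 and Tgfbr2 beyond the lower one at -1.25 and -1.16.

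The labelled cell type was checked with markers. All 9 macrophage markers on the array were measured on both arrays, with signals from 262 to 6444 with IFN-gamma and from 254 to 13361 with adenosine. Lyz2 (log2 ratio 1.05, and -0.44 as deposited) was the only one at least 2-fold higher and Fcgr1 (log2 ratio -1.52) the only one at least 2-fold lower. None of 8 endothelial and 6 fibroblast markers was measured, with highest signals of 14.1 and 13.2. Their sums over the list were 30.0 and 47.4 for endothelium, and 23.1 and 39.5 for fibroblasts, IFN-gamma first. Of 5 platelet markers, Pf4, a chemokine gene that macrophages also express, was measured, at 577 and 748, while Itga2b, Gp9, Ppbp and Itgb3 were below the floor.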

How the data were processed

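The authors deposited 1 linear intensity per probe set and array, for 22690 probe sets on 2 Affymetrix arrays. Per the submitters' processing notes, GCOS was used. Its signal algorithm and scaling target, and any detection calls, were not given in the sources used here.

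Probe sets were named from the platform annotation, and 64 controls were left out of gene results. Of the other 22626, 20380 had 1 symbol, 691 several and 1555 none in the table used, and 20351 of the named ones matched a RefSeq gene of GRCm38.p6 by Entrez identifier. Log2 ratios were centred on the median (-1.50) of 10041 probe sets above 24.5 on both arrays, the 50th percentile of deposited signals. A floor at the 50th percentile of scaled signals (44.0) followed. Each gene took the values of its brightest probe set by mean signal.

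The members and lists were chosen with earlier results of these data known. Named were all 10 members, the 3 largest absolute log2 ratios of each list, and 10 receptor genes whatever their value. No gene is named for likeness of pattern, since 2 arrays give 1 ratio. Alternatives were the deposited scale, trimmed mean (2% per tail), quantile, loess (span 0.3) and spiked-in scaling, floors at percentiles 33 and 67, a pseudocount of 16, all probe sets averaged, shared ones left out, and thresholds of 1.5-fold and 3-fold. Choosing the probe set by IFN-gamma signal was added after seeing the data. The calculation was tested on simulated data, with changes set only in brighter genes and equal for all probe sets of a gene. Dim genes and disagreeing probe sets were thus not covered. Python 3.11.15, numpy 2.4.6, pandas 2.3.3, scipy 1.17.1, statsmodels 0.14.6 and matplotlib 3.10.9 were used. The number of arrays limits precision.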

Additional observations from a re-analysis of the deposited data

How the results depend on the processing

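No paired analysis was possible because only 1 array represents each treatment, so none could be left out. Of 121 log2 ratios of members and their probe sets recomputed under the alternatives, 82 moved by less than the probe set SD of 0.52, 36 moved by more and 3 changed sign after having been at least 2-fold. This tally is not a rate of robustness. A gene with 1 probe set cannot move when probe sets are averaged, and signals above the floor cannot move when it is lowered. The deposited and spiked-in scales change the whole adenosine array by 1 factor, and every entry moved by more than the SD under them. The sign changes were Vegfa without shared probe sets and with the probe set chosen by IFN-gamma signal (-0.12 in both), and Pdgfa in the values as deposited (-0.32). Against 3 of 8 measured members at least 2-fold higher, the count was 0 as deposited and 0 with spiked-in scaling, where Vegfa lay just under the threshold. It was 1 of 8 with the mean of all probe sets (3.91% of all genes), 1 of 8 with the choice by IFN-gamma signal and 1 of 7 without shared probe sets (4.80% of all genes). Against 2 at least 2-fold lower, it was 4 of 8 both as deposited (78.8% of all genes) and with spiked-in scaling (50.7%). It was 4 of 10 under the lower floor (33rd percentile, 10.3% of 9177 genes) and 1 of 7 under the higher floor (67th, 6.48% of 5062 genes).

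Against 1 of 43 measured related genes at least 2-fold higher, the count was 0 of 45 as deposited and 0 of 44 with spiked-in scaling. The shares of all genes there were 0.141% and 0.473%. It was 0 of 28 under the higher floor (2.63% of all genes) and 0 of 36 when shared probe sets were dropped (4.80%). The count was 2 with trimmed mean (5.17%), quantile (5.83%) and loess scaling (4.17%) and with the mean of all probe sets (3.91%). Under the lower floor it was 5 of 73 (6.53%), and at a 1.5-fold threshold 6 (12.9%). Against 2 at least 2-fold lower, it was 36 of 45 as deposited and 19 of 44 with spiked-in scaling, beside the 78.8% and 50.7% of all genes. It was 4 with loess scaling (12.1% of all genes) and 4 of 36 when shared probe sets were dropped (10.1%). The count was 5 of 73 under the lower floor (10.3%) and 1 of 28 under the higher floor (6.48%). With the mean of all probe sets it was 1 (8.43%), at 1.5-fold 13 (21.8%) and at 3-fold 0 (2.96%). The lower fold of Nrp1 is limited by the floor: under the higher floor its log2 ratio was -0.34. Causes of other shifts were not tested.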

Other observations

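Probe sets of the same gene also parted in the related lists. Of 18 listed genes with a second measured probe set, 10 had ratios of opposite sign and 7 differed by at least 2-fold, against 34.9% and 16.3% of 2770 genes. Hif1a, the oxygen-regulated HIF alpha chain gene, and Cited2, which competes with HIF for a coactivator, were singled out after their values had been seen. The 3 measured Hif1a probe sets had log2 ratios of -0.29, 0.72 and -1.64, and those of Cited2 were -0.04 and 2.19. Skil, a repressor of SMAD signalling also singled out afterwards, was at 0.35 and 1.41. Direction for Hif1a thus depends on the probe set read, as for Tgfbr2. For Vegfa the second probe set, at -0.12, lay within the SD of 0.52 and gave no opposite direction beyond it.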
